A study of Mus musculus with 10 samples.

Results

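Ephrins and Eph receptors were followed as a family of 10 listed genes: the A-type ephrins Efna1, Efna2, Efna4 and Efna5, the B-type ephrins Efnb1 and Efnb2, and the receptors Epha2, Ephb2, Ephb3 and Ephb4. They were listed by gene name, with earlier results of these data known. Each was looked up in the deposited table by its symbol. Of the 10, 8 had a row of their own, and all 8 reached 1 RPKM in at least 2 libraries, so they were among the 12842 tested rows of 18430 in all. Efna4 stood only in a row that joins it with Adam15 and Dcst1, and the reads of that row belong to no 1 gene, and no row was found under Efna2, which is not analysed here. RPKM relates reads to transcript length and to the mapped reads of the library, so levels may be set side by side between genes.

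NIH3T3, the cells used, is an established fibroblast line from mouse embryos. It was studied as 4 clones stably overexpressing FOXP2, a forkhead transcription factor, and 4 clones stably overexpressing FOXP2-CPED1, which the series title calls an arrangement of FOXP2. The control arm was 1 library of parental cells, which carry no construct, and 1 library of cells stably overexpressing the vector. With 1 library per clone, the spread of a construct is that between its clones, and nothing in the labels says that a control is a clone, so deriving clones and the construct cannot be told apart against the control. No source used here gives the promoter or the species of the introduced sequences. The mouse Foxp2 row stood at 0.0798 and 0.0785 RPKM in parent and vector, at 0.217, 0.365, 0.145 and 1.02 in the FOXP2 clones, and at 0.161, 0.169, 0.0674 and 0.330 in those of FOXP2-CPED1, of which clone 3 was below both controls. Whether the table would register the introduced sequence is not known, so the labelled overexpression is neither shown nor contradicted by it.

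Ephrins are ligands that stay on the surface of the cell that makes them, A-type ephrins by a lipid anchor and B-type ephrins by a membrane-spanning segment with a short cytoplasmic tail. Eph receptors are receptor tyrosine kinases that mostly bind ephrins of their own letter, and contact between neighbouring cells can signal forward through the receptor and in reverse through the ephrin. The family is known for repulsion and sorting of cells, for guidance of axons, and for the boundary between arteries, marked by ephrin-B2, and veins, marked by EphB4; in fibroblasts, Eph signalling acts on adhesion and the actin cytoskeleton.

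The summed RPKM of a library ran from 794682 to 944602, and relative depth, read from the steps among values under 0.3 RPKM, from 0.91 to 1.32 times that of the parent; absolute depth is unknown. Mitochondrially encoded rows were listed at 0 in 3 clones (2 and 4 of FOXP2, 3 of FOXP2-CPED1). Of the fibroblast markers, 8 of 9 had a row of their own, and their sum ran from 5945 to 9116 RPKM. Of 9 endothelial markers, only Cdh5 had its own row, with 0.536 RPKM as its highest value. Of 8 epithelial markers only Cdh1 had one (at most 2.37 RPKM). A row that joins the keratins Krt19, Krt14 and Krt16 stood at 86.1 and 73.4 RPKM in the controls and 12.7 to 83.1 in the clones. Of 9 blood and immune markers only Lyz2 had its own row (13.6 to 33.7 RPKM), and of 8 neural markers none. The endothelial Egfl7 and Esam, the neural Gfap and the immune Cd68 stood in rows joined with other genes, so their own levels are not known.

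Efna1 and Epha2, the ligand and the receptor with the largest log2 fold changes in the family, are the members on which the results turn, so their promoters are shown first. They are the 250 bases before the RefSeq start site on build GRCm38.p6, a later build than the mm9 of the deposited values, written 5′ to 3′ on the strand of the gene. Efna1 lies on the minus strand at chr3:89279646-89279895 and Epha2 on the plus strand at chr4:141300971-141301220. Capitals mark the letters CATTCC, the reverse complement of GGAATG, which TEAD factors of the Hippo pathway are known to bind.
Efna1: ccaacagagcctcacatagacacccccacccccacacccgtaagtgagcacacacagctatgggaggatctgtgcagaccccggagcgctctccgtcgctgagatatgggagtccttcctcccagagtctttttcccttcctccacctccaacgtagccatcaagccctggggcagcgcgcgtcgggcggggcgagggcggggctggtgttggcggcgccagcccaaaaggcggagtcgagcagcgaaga
Epha2: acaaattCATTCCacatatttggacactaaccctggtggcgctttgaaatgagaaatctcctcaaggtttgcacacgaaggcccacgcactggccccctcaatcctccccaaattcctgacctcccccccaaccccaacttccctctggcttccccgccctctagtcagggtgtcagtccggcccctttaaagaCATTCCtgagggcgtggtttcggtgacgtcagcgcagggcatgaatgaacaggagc

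Each window of 300 bases, 250 before to 50 after the start site, was searched on both strands for TGTTTAC (forkhead), TATTTNT (a looser forkhead form), TGANTCA (AP-1) and GGAATG (TEAD). Of 32851 RefSeq promoters of that length, 3.65%, 18.4%, 7.81% and 14.7% held a match, in that order. Among the 11 promoters of the 10 listed members, matches were found only for GGAATG, in Epha2 and Efnb2. The promoter of Epha2 held 2 of them, starting 243 and 56 bases before the start site, as did at least 2 in 1.36% of all promoters. Efna1 has another listed start, and its window held no match either. No match says only that these letters are not in the window.

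Among the listed members, the receptors stood above the ligands in the control. Outside the list, the receptors Epha4 and Epha7 had control means of 2.15 and 3.43 RPKM, below those of Efna1 and Efna5. Ephb4, the receptor known from veins, was highest at 22.6 ± 0.355 RPKM (SD, n = 2), followed by Epha2, a receptor of ephrin-A1, at 18.8 ± 0.0269 and Ephb3 at 18.4 ± 0.308. Ephb2, which also binds B-type ephrins, stood at 11.1 ± 0.453 RPKM. Among the ligands, Efna1 stood at 6.21 ± 0.648, Efna5 at 4.92 ± 0.0200, Efnb1 at 2.69 ± 0.629 and Efnb2 at 2.53 ± 0.0888 RPKM. Of the neighbours in this order, Efnb1 and Efnb2 overlapped in their 2 control libraries and the others did not. By the mean of either construct, Efna1 ranked behind only Ephb4 and Ephb3, at 13.8 ± 2.83 RPKM with FOXP2 and 13.6 ± 2.15 with FOXP2-CPED1 (n = 4 each). Single clones differed from this order: in FOXP2 clone 2 and FOXP2-CPED1 clone 4, Efna1 (10.8 and 10.6 RPKM) stood below Epha2 (21.9 and 19.6). The ranges of neighbours in the order overlapped more widely than in the control.

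**Figure D1:**
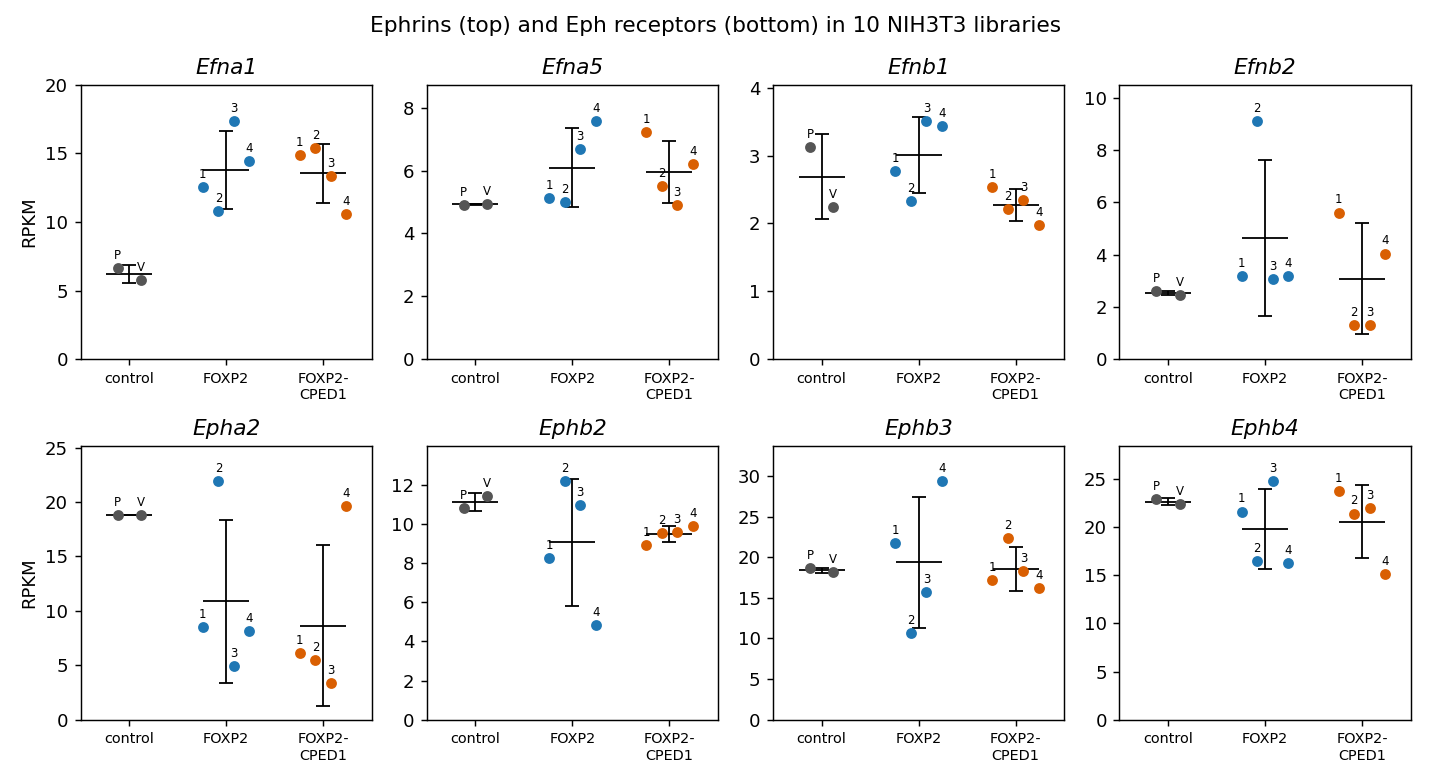
RPKM of the 4 ephrins (top row) and 4 Eph receptors (bottom row) that have their own row, in the control (P, parent; V, vector), in 4 FOXP2 clones and in 4 FOXP2-CPED1 clones, numbered by clone. Points are libraries, horizontal lines means and bars SDs; all 8 clones lie above both controls for Efna1, and clone 2 of FOXP2 and clone 4 of FOXP2-CPED1 stand at the control level for Epha2.

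Each construct was first compared with the control. By limma with Benjamini-Hochberg adjustment over all 12842 rows, 0 of the 8 members passed with FOXP2 and 0 of 8 with FOXP2-CPED1. Over all rows, 0.436% were called with FOXP2 (0.0389% higher, 0.397% lower) and 0.35% with FOXP2-CPED1 (0.0234% higher, 0.327% lower). An unadjusted p under 0.05 was reached by 1 of 8 members, Efna1, in each comparison, and by 8.52% of all rows with FOXP2 and 7.28% with FOXP2-CPED1, so the members' share is near that of all rows. The members' median log2 fold change was 0.05 with FOXP2 (0.02 over all rows) and -0.08 with FOXP2-CPED1 (0.00 over all rows, 0.001611 before rounding).

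With all 8 clones set against the control, a contrast of the same fit that shares the control with both comparisons above, 0.537% of rows (0.0389% higher, 0.498% lower) and 0 of 8 members were called. Again 1 member, Efna1, had an unadjusted p under 0.05, as did 9.1% of all rows. Between FOXP2-CPED1 and FOXP2, limma called 0 members and 0 of all rows (0%), with 0 members and 278 rows at an unadjusted p under 0.05.

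Efna1 encodes ephrin-A1, a lipid-anchored ligand whose best known receptor is EphA2. Parental cells had 6.66 RPKM and vector cells 5.75. The FOXP2 clones, in the order 1 to 4, had 12.5, 10.8, 17.4 and 14.4 RPKM. The FOXP2-CPED1 clones, in the same order, had 14.9, 15.4, 13.4 and 10.6 RPKM. Every clone of both constructs was thus higher than either control, and the constructs overlapped each other. Over all tested rows, 5.44% had all 8 clones above both controls and 6.38% below, and 1 of the 8 members was above and 0 below. The summed fibroblast markers also separated all 8 clones (5945 to 8967 RPKM) from both controls (9009 and 9116 RPKM), in the lower direction. The single markers did not all follow the sum. Of the 8 tested, 2 had all clones below both controls and 0 above, and 6 log2 fold changes were negative and 2 positive. The part of these markers in the values of Efna1 was not tested.

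The mean of Efna1 was 2.22 times the control with FOXP2 and 2.19 times with FOXP2-CPED1. The log2 fold change was 1.02 ± 0.20 (SE) with FOXP2, with an adjusted p of 0.0899 by limma, and 1.00 ± 0.20 with FOXP2-CPED1, with an adjusted p of 0.0986. With library quality weights both were under the threshold, at adjusted p = 0.000539 and 0.000764 by limma. These weights raised the called rows of the whole table more than any other alternative, so passing with them is not particular to Efna1. For all 8 clones the log2 fold change was 1.01 ± 0.19, with a 95% interval of 0.60 to 1.43. Its adjusted p by limma was 0.0506, just past the threshold of 0.05 on the side that is not called. A two-sided exact permutation test on mean RPKM, not adjusted over genes, gave p = 0.0444 for the 8 clones. That is the smallest p that 8 against 2 libraries allow. Any row with all 8 clones on 1 side of both controls reaches it, as 11.8% of all rows do, so it restates that separation. With 4 against 2 libraries the same test gave 0.133 for each construct, again the smallest possible.

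The call for the 8 clones depended on the setting. The adjusted p by limma ran from 0.000221 to 0.735 over 17 alternatives and was under 0.05 in 5 of them: quantile normalization (0.0463), library quality weights (0.000221), and without FOXP2 clone 2 (0.0336), FOXP2 clone 3 (0.0460) or FOXP2-CPED1 clone 4 (0.0325). With only the vector library or only the parental library as control it was 0.458 and 0.735, where the lone control is assumed to vary like the other arms. The log2 fold change itself stayed between 0.92 and 1.11 in all 17, and was 1.07 when the 3 libraries lacking mitochondrial values were dropped (adjusted p = 0.148).

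Efna1 sits in a cluster of ephrin-A genes, in the order Efna1, Efna3, Efna4 and then Adam15 and Dcst1 along its chromosome in RefSeq. Efna3, which is not among the 10 listed genes, stood at 7.27 and 5.32 RPKM in parental and vector cells and at 5.39 to 12.4 in the clones, with overlapping ranges and a log2 fold change of 0.26 ± 0.25 for the 8 clones (adjusted p = 0.820, limma), which was 0.45 without the parent and 0.06 without the vector library. The joined row of Efna4, Adam15 and Dcst1 stood at 145.7 and 131.6 RPKM in the controls and 91.96 to 157.6 in the clones, at -0.32 ± 0.19 (adjusted p = 0.682). On the other side, the nearest coding genes Slc50a1, Dpm3, Krtcap2 and Trim46 had log2 fold changes of -0.04, 0.01, 0.12 and 0.37, none called. The level of Efna1 was thus about 1 log2 unit higher in the clones while these neighbours lay within 0.37 of 0 with all libraries in the fit; the differences between neighbours were not tested. Efna1 shares no exon with another gene in GENCODE M21.

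Efna5, another lipid-anchored ligand, had 4.91 RPKM in the parent and 4.94 in the vector library. Its FOXP2 clones, in order, had 5.12, 5.0003, 6.68 and 7.59 RPKM, and its FOXP2-CPED1 clones 7.22, 5.51, 4.92 and 6.21. All 4 FOXP2 clones were above both controls, as for 3 of the 8 members (Efna1, Efna5 and Efnb2) and 9.13% of all rows (19.5% in either direction), and FOXP2-CPED1 clone 3 lay between the controls. On the log2 scale it differed from the control by 0.24 ± 0.20 with FOXP2 (adjusted p = 0.810, limma) and 0.22 ± 0.20 with FOXP2-CPED1 (adjusted p = 0.872).

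Efnb1 encodes ephrin-B1, a transmembrane ligand of EphB receptors. The parent had 3.13 RPKM and the vector library 2.24. The 4 FOXP2 clones had 2.78, 2.33, 3.52 and 3.43 RPKM, and the 4 FOXP2-CPED1 clones 2.54, 2.21, 2.35 and 1.98. Both constructs overlapped the control. The log2 difference of FOXP2-CPED1 from FOXP2 was -0.29 ± 0.15, with a 95% interval of -0.63 to 0.05 and an adjusted p of 0.9998 by limma (exact permutation p = 0.0857, smallest possible 0.0286).

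Efnb2, which encodes ephrin-B2, had 2.59 RPKM in the parent and 2.47 in the vector library. The FOXP2 clones had 3.18, 9.13, 3.07 and 3.19 RPKM, so that clone 2 stood far above its sister clones. The FOXP2-CPED1 clones had 5.61, 1.31, 1.32 and 4.04 RPKM, with 2 clones above and 2 below both controls. The log2 fold change was 0.55 ± 0.50 with FOXP2 (adjusted p = 0.825, limma; 0.23 without clone 2) and 0.05 ± 0.50 with FOXP2-CPED1 (adjusted p = 0.994), and its sign with FOXP2-CPED1 turned when the pseudocount was 0.1 or when libraries were weighted by quality.

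**Figure D2:**
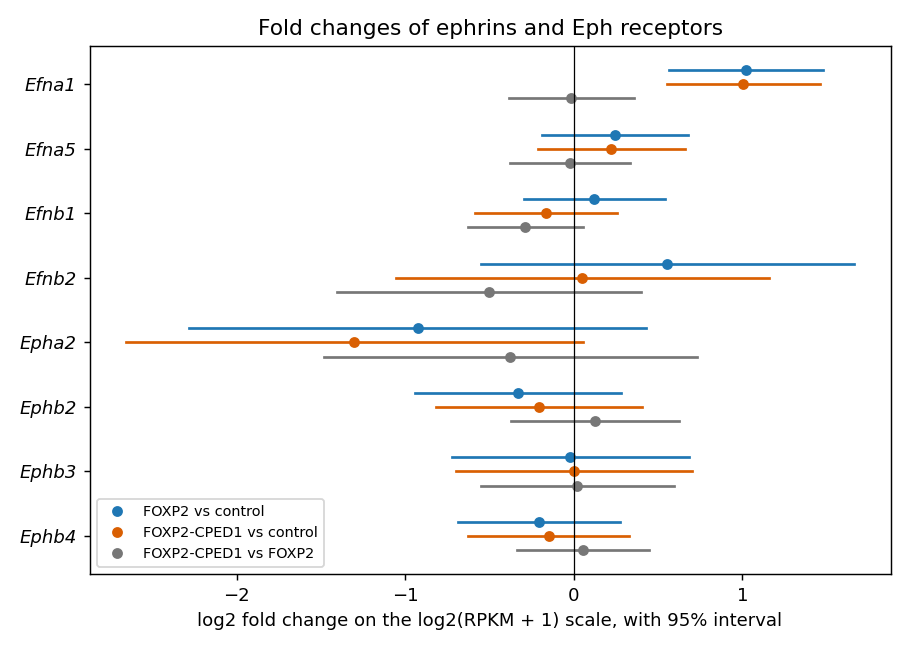
Log2 fold changes of the 8 measured members on the log2(RPKM + 1) scale, for FOXP2 against control, FOXP2-CPED1 against control and FOXP2-CPED1 against FOXP2. Points are estimates of the linear model and lines 95% intervals without adjustment over genes; the intervals of Efna1 against the control lie above 0, from 0.56 to 1.48 with FOXP2 and from 0.55 to 1.46 with FOXP2-CPED1, and all others span 0.

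Epha2 encodes EphA2, the receptor best known for binding ephrin-A1. Both controls had 18.8 RPKM. The FOXP2 clones had 8.51, 21.9, 4.94 and 8.12 RPKM in the order 1 to 4, and the FOXP2-CPED1 clones 6.14, 5.48, 3.33 and 19.6. In each construct, 3 clones thus lay well below the controls and 1 slightly above them, with no clone between 8.51 and 19.6 RPKM.

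Because of those clones the arms overlapped, and the SD was 7.52 RPKM around a mean of 10.9 with FOXP2 and 7.42 around 8.65 with FOXP2-CPED1 (n = 4 each). The log2 fold change was -0.93 ± 0.61 with FOXP2 (adjusted p = 0.747, limma), -1.30 ± 0.61 with FOXP2-CPED1 (adjusted p = 0.701) and -1.11 ± 0.56 for all 8 clones (adjusted p = 0.592). Without FOXP2 clone 2 the last was -1.30 (adjusted p = 0.331), and without FOXP2-CPED1 clone 4 it was -1.34 (adjusted p = 0.280). Only library quality weights, of 17 alternatives, brought it under the threshold (-1.39, adjusted p = 0.00716). The same weights did so with FOXP2 (-1.06, 0.0251) and with FOXP2-CPED1 (-1.71, 0.0106). They also raised the called rows of the whole table more than any other alternative. The clones with high Epha2 also had the lowest sums of the fibroblast markers in their constructs, 5945 RPKM for FOXP2 clone 2 and 6378 for clone 4 of FOXP2-CPED1, although Vim, the marker with the highest single value, was highest of its construct in the same clones (2420 and 2156 RPKM); the part of this in the result was not tested, and in bulk RNA fewer cells of a type and less RNA per cell cannot be told apart.

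The values of this ligand and this receptor can be set side by side as a ratio, which is a description: the pair was picked for its fold changes, so a ratio apart from the control follows in part from that choice. The ratio of Efna1 to Epha2 was 0.354 in parental and 0.306 in vector cells. Among the FOXP2 clones it was 1.47, 0.492, 3.52 and 1.78, and among those of FOXP2-CPED1 2.42, 2.81, 4.01 and 0.540. It was therefore above both controls in all 8 clones and above 1 in 6 of them. Clone 2 of FOXP2 and clone 4 of FOXP2-CPED1, with the highest Epha2, had the lowest Efna1 of their constructs. Pearson's r of this pair was -0.771 over the 10 libraries and -0.808 over the 8 clones. Both values draw on the separate ranges of Epha2 and on the choice of the pair. Among the 6 clones with Epha2 under 10 RPKM, r was -0.244 (Pearson) with a rank correlation of -0.429 (Spearman), as a description over few clones.

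**Figure D3:**
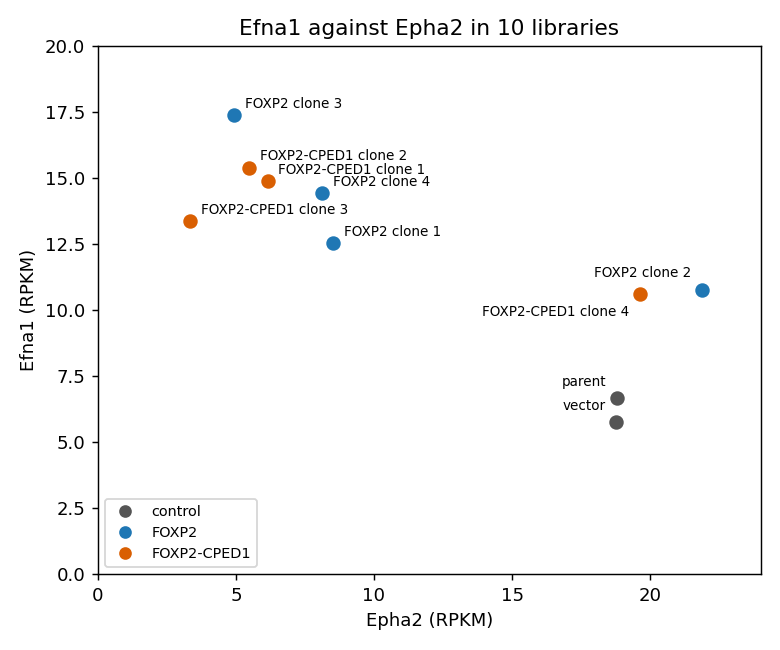
Efna1 against Epha2 in RPKM, 1 point per library, coloured by arm. The controls sit at 18.8 RPKM of Epha2 with Efna1 at 5.75 and 6.66; 6 clones sit at 3.33 to 8.51 RPKM of Epha2 with Efna1 at 12.5 to 17.4, and 2 clones at 19.6 and 21.9 with Efna1 at 10.6 and 10.8.

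The EphB receptors were close to the control in sum in 6 of the 8 clones. Ephb2, Ephb3 and Ephb4 together stood at 52.3 and 52.0 RPKM in parental and vector cells, at 39.2 to 51.5 in the FOXP2 clones and at 41.3 to 53.3 in the FOXP2-CPED1 clones. The lowest sums were again those of FOXP2 clone 2 and of clone 4 of FOXP2-CPED1.

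Ephb4 had 22.9 RPKM in the parent and 22.4 in the vector library. Its 4 FOXP2 clones had 21.6, 16.5, 24.7 and 16.3 RPKM, and its FOXP2-CPED1 clones 23.7, 21.4, 21.95 and 15.1. In each construct 1 clone was above both controls and 3 below. Its log2 fold change was -0.21 ± 0.22 with FOXP2 (adjusted p = 0.850, limma) and -0.15 ± 0.22 with FOXP2-CPED1 (adjusted p = 0.924). In GENCODE M21 an exon of Ephb4 overlaps one of Zan on the opposite strand, and no source used here gives the strand setting of the quantification.

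Ephb3, a further receptor of B-type ephrins, had 18.6 RPKM in the parent and 18.2 in the vector library. The FOXP2 clones had 21.7, 10.6, 15.7 and 29.3 RPKM and so lay on either side of the controls. The FOXP2-CPED1 clones had 17.2, 22.4, 18.3 and 16.2 RPKM, closer together but also on either side. Its log2 fold changes against the control were the nearest to 0 of the 8 members, -0.02 ± 0.31 with FOXP2 (adjusted p = 0.994, limma) and -0.001266 ± 0.31 with FOXP2-CPED1 (adjusted p = 0.9997), although its FOXP2 clones ranged from 10.6 to 29.3 RPKM.

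Ephb2 had 10.8 RPKM in the parent and 11.4 in the vector library. Its FOXP2 clones had 8.25, 12.2, 10.97 and 4.84 RPKM, with 1 clone above the controls, and its FOXP2-CPED1 clones 8.93, 9.52, 9.60 and 9.87. All 4 FOXP2-CPED1 clones were below both controls. That held for 1 of the 8 members, Ephb2, and 13.3% of all rows, while 1 member, Efna1, and 12.2% of all rows had these clones above (25.6% in either direction). Its log2 fold change was -0.33 ± 0.27 with FOXP2 (adjusted p = 0.812, limma; -0.09 without clone 4) and -0.21 ± 0.27 with FOXP2-CPED1 (adjusted p = 0.916). Across the 10 libraries Ephb2 was high where Ephb3 was low: among the 28 pairs of members this pair had the most negative Pearson's r, -0.811 (Spearman's rank correlation -0.733). It was -0.482 without the 2 libraries farthest from the median of Ephb2, so it rests largely on those, and it is given as a description.

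Between FOXP2-CPED1 and FOXP2 clones, the members' log2 differences ran from -0.50 ± 0.41 for Efnb2 to 0.12 ± 0.22 for Ephb2, and every adjusted p was 0.9998 by limma. The 95% interval was narrowest for Efnb1 (-0.63 to 0.05), Efna5 (-0.38 to 0.33) and Efna1 (-0.39 to 0.36). It was widest for Epha2 (-1.48 to 0.73) and Efnb2 (-1.41 to 0.40), so both intervals include a log2 difference of -1. For 0 of 8 members did the libraries of the constructs lie apart, against 1.38% of all rows (0.576% higher and 0.802% lower with FOXP2-CPED1).

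Of the 12 other genes of the family, Efna3, Epha4 and Epha7 had a row that was tested, Efnb3 stood in a row joined with Wrap53, and the other 8 are not analysed here. By limma 0 of the 3 passed in any comparison, with 0 at an unadjusted p under 0.05. Epha4, a receptor that binds ephrins of both types, stood at 1.59 and 2.71 RPKM in parental and vector cells, at 0.625 to 1.35 in the FOXP2 clones, all below both controls, and at 0.853 to 2.46 in the FOXP2-CPED1 clones. Its log2 fold change with FOXP2 was -0.62 ± 0.28 (adjusted p = 0.590, limma), where 10.4% of all rows had all 4 clones below. Epha7, whose symbol stands on 3 rows, was read from the highest: 3.93 and 2.93 RPKM in the controls, listed at 0 in FOXP2 clone 3, 0.119 in FOXP2-CPED1 clone 1 and 0.973 to 5.40 in the other 6 clones. Its other rows were also listed at 0 in FOXP2 clone 3.

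Genes that act with Eph receptors and ephrins were described from 3 lists. By limma over all rows, 0 of 24 adaptors and exchange factors, 0 of 26 kinases, phosphatases and GTPases, and 0 of 18 reverse signalling, PDZ and shedding partners passed in any comparison. For the 8 clones against the control, 1, 2 and 2 of them had an unadjusted p under 0.05, where 9.1% of all rows did, so these counts are near that background. The medians of their log2 fold changes were 0.04, -0.08 and 0.10, against 0.01 over all rows. All 8 clones lay outside the controls in 1 direction for 8.33%, 15.4% and 16.7% of the lists, against 11.8% of all rows.

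Those with the smallest p for the 8 clones against the control in each list were as follows. Other comparisons give another order: between the constructs the adaptor Nck2 stood at -1.04 ± 0.20 (adjusted p = 0.741, limma), also not called. Bcar1, the docking protein p130Cas of focal adhesions, stood at 66.8 and 63.0 RPKM in the controls and 27.2 to 44.7 in the 8 clones, at a log2 fold change of -0.96 ± 0.18 and an adjusted p of 0.0506 by limma, equal to that of Efna1 after adjustment. Yes1, a kinase of the Src family, stood at 5.27 and 5.44 RPKM and at 6.42 to 10.2 in the clones (0.55 ± 0.17, adjusted p = 0.290). Both had all clones on 1 side of the controls, as had 11.8% of all rows. For genes picked by p in this comparison, that follows in part from the choice.

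Pik3r1, the p85 subunit of phosphoinositide 3-kinase, stood at 6.04 and 6.67 RPKM in the controls and 9.86 to 18.8 in the clones (0.96 ± 0.23, adjusted p = 0.141, limma). Vav2, an exchange factor, stood at 9.30 and 10.4 RPKM and at 5.67 to 8.98 (-0.33 ± 0.15, adjusted p = 0.556). Rgs3, a regulator of G protein signalling of which a form with a PDZ domain binds the tail of B-type ephrins, stood at 21.1 and 22.7 RPKM in the controls and 6.16 to 15.2 in the clones (-1.35 ± 0.28, adjusted p = 0.0848); the row does not separate its forms. Pard6a, a polarity protein, stood at 8.91 and 9.72 RPKM and at 5.81 to 8.41 (-0.35 ± 0.14, adjusted p = 0.488). All 4 genes had every clone on 1 side of both controls, which again follows in part from their choice by p.

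Bcar1 was under the threshold in 6 of 17 alternatives and Rgs3 in 2, with adjusted p by limma from 6.57e-05 to 0.683 and from 0.000918 to 0.841.

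**Figure D4:**
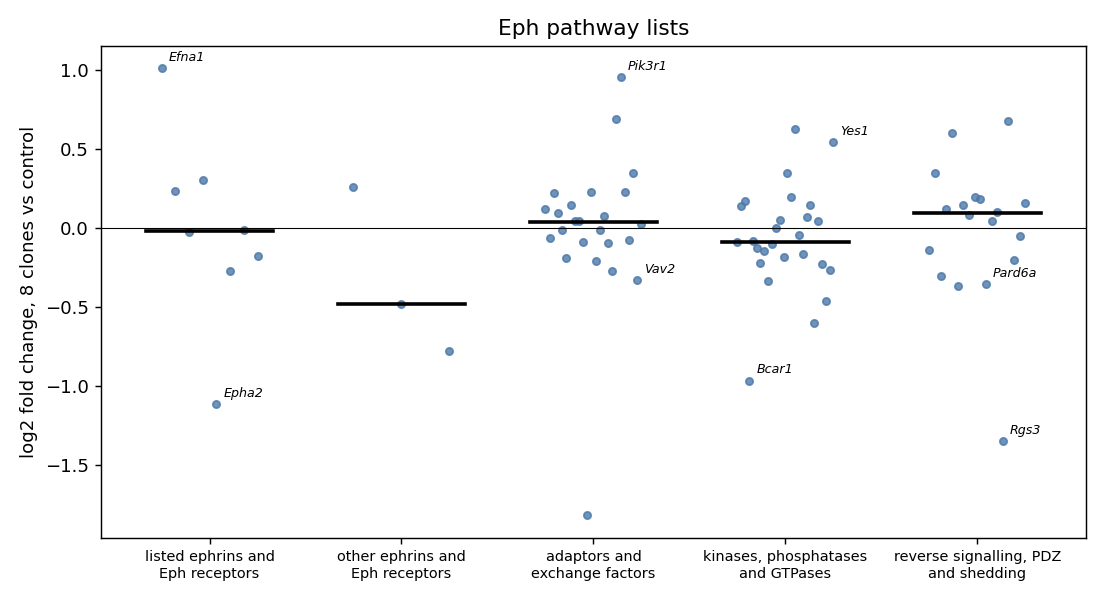
Log2 fold changes of all tested genes in the family and in 3 lists of Eph signalling genes, for 8 clones against the control. Points are genes, thick lines the medians of the lists (-0.02, -0.48, 0.04, -0.08 and 0.10 from left to right). Efna1 (1.01), Epha2 (-1.11), Bcar1 (-0.96) and Rgs3 (-1.35) lie far from their medians. The adaptor Grb10 (-1.82, not labelled) lies farthest, with clones from 0.0398 to 74.5 RPKM. None of the genes shown was called.

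For the 3 members with the smallest p of the 3-arm test, Efna1, Epha2 and Efnb1, the genes most alike in pattern were found by Pearson's r of log2(RPKM + 1) over the 10 libraries, as a description. Epha2 was most like Hbegf, a ligand of the EGF receptor (r = 0.972), and S100a10, a partner of annexin A2 (r = 0.960). Hbegf had 8.28 and 8.44 RPKM in the controls, 2.84, 13.5, 2.23 and 3.34 in the FOXP2 clones and 2.71, 2.65, 1.49 and 7.58 in the FOXP2-CPED1 clones. High values of Hbegf were thus found in the same 4 libraries as those of Epha2, and r over the 10 libraries draws on those separate ranges. Among the 6 clones with Epha2 under 10 RPKM r was 0.932 for Hbegf and 0.824 for S100a10. Both genes were picked over libraries that include these clones, so a high r there follows in part from the choice.

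Efna1 was most like Ppil4, a peptidyl-prolyl isomerase (r = 0.963), and Cpa6, a carboxypeptidase (r = 0.962). Cpa6 stood at 0.246 and 0.104 RPKM in the controls and 3.23 to 7.37 in the clones, and is a gene that passed in both constructs (adjusted p = 0.0167 with FOXP2 and 0.00828 with FOXP2-CPED1, limma). Within the 8 clones alone r with Efna1 was 0.874 for Ppil4 and 0.785 for Cpa6, which were also picked over libraries that include these clones. Efnb1 was most like Lrif1 (r = 0.925) and Elmod3 (r = 0.921).

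**Figure D5:**
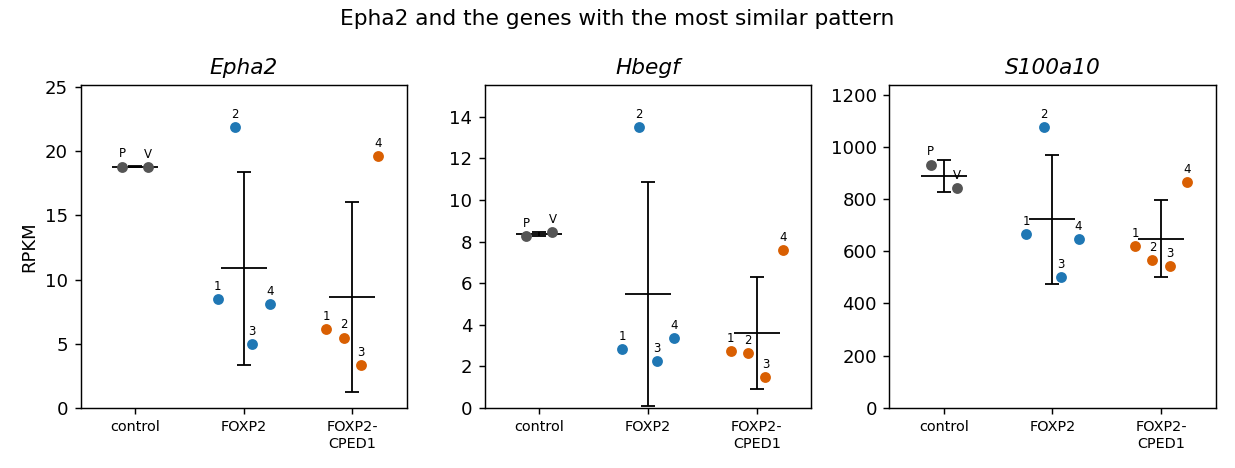
RPKM of Epha2 and of Hbegf and S100a10, the genes most like it in pattern, by arm (P, parent; V, vector; clones numbered), with means and SDs. In all 3 panels FOXP2 clone 2 and FOXP2-CPED1 clone 4 stand above the other clones of their construct, at 13.5 and 7.58 RPKM for Hbegf and at 1075 and 864 RPKM for S100a10.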

How the data were processed

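RNA was measured in 10 libraries of NIH3T3 cells. The authors deposited their RPKM values as 1 table, whose headers name 1 column for each library. HISAT2, StringTie and the build mm9 are named in the submitters' processing notes; versions, annotation and strand setting: not given in the sources used here. Of 18430 rows, 3581 name no gene (3.37 to 4.54% of a library's RPKM) and were left out of tests, and 987 join several genes. Where a symbol had several rows, the row with the highest mean was used.

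Values were taken as log2(RPKM + 1); rows with 1 RPKM in at least 2 libraries were tested. A linear model with 3 arms (control, FOXP2, FOXP2-CPED1) was fitted with limma 3.58.1 in R 4.3.3, with a trend, and p-values, all two-sided, were adjusted by Benjamini-Hochberg over 12842 rows. The fit was tested on simulated data. Exact permutation tests (scipy 1.17.1) used mean RPKM, and a two-sided p is 2 times the smaller one-sided p. Fold changes on this scale understate the change of low genes. Nothing in the labels says that the controls are independent cultures, and p-values measure only the spread between these libraries. RPKM hold no counts, so no counting interval was computed.

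Named genes were the members, the other measured genes of the family, of each list the genes past the threshold or else the 2 with the smallest p for the 8 clones, and for 3 members the 2 genes most alike. The members, lists and tests were chosen with earlier results of these data known. Alternatives were a pseudocount of 0.1, no filter, a mean of at least 5 RPKM, quantile normalization, scaling by median ratios, weights for library quality, leaving the arm that is not compared out of the fit, a block for the clone number, each library left out, and the 3 libraries with mitochondrial rows at 0 left out.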

Additional observations from a re-analysis of the deposited data

Results flagged for a closer look

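Within each construct, the highest and the lowest clone were compared with the nearest other clone for 13 rows of the family, in 26 groups of 4 clones. In 2 groups the gap took up more of the group's range than Dixon's 95% critical value, and chance gives about 1 in 20. Efnb2 at 9.13 RPKM in FOXP2 clone 2 stood apart from clones 1, 3 and 4 (3.07 to 3.19 RPKM), with a gap of 0.981 of the range. The joined row of Efnb3 and Wrap53 at 9.37 RPKM in the same clone stood apart from 5.46 to 5.95 RPKM in the others, with a gap of 0.877 of the range.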

How the results depend on the processing

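No member was called with the main settings, and the direction of Efna1 and Epha2 against the control was kept in all 17 alternatives for the 8 clones. Counts of called rows moved most with library quality weights, to 1842 for the 8 clones, 2095 with FOXP2, 929 with FOXP2-CPED1 and, for the constructs, 4 (main 69, 56, 45 and 0). A pseudocount of 0.1 gave 37 with FOXP2 and 28 with FOXP2-CPED1, and fitting only the arms compared gave 9 with FOXP2. When the 3 libraries lacking mitochondrial values were dropped, 23 were called with FOXP2. Leaving out 1 library gave 2 to 82 for the 8 clones, 2 to 64 with FOXP2, 0 to 57 with FOXP2-CPED1 and between 0 and 1 for the constructs, lowest without a control: 2, 2 and 0 without the parent and 3, 3 and 2 without the vector. Among clones, the count with FOXP2 was 22 without FOXP2 clone 1 and 25 without clone 4. Without FOXP2-CPED1 clone 1, 2 or 3 the count with FOXP2-CPED1 was 13, 14 or 17; without clone 1 or 3 it was 33 or 29 with FOXP2 and 43 or 42 for the 8 clones. Clone numbers were not treated as a pairing, since the labels state none. Same-numbered clones correlated in their deviations at -0.0357, -0.24, 0.281 and 0.166. Clones of unlike number did so from -0.428 to 0.393, so these values cannot settle whether the numbers pair. The replicate block called 0 rows between constructs, as without it.

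Signs of these uncalled log2 differences turned as follows; the cause was not tested. Between constructs, Efna1 turned to 0.00 (0.001199) with median ratios and 0.12 with weights, and Efna5 to 0.0809 with weights. With weights Ephb3 turned to 0.12 for all clones, 0.211 with FOXP2, 0.0206 with FOXP2-CPED1 and, for the constructs, -0.191, and Efnb2 with FOXP2-CPED1 to -0.12 (-0.003575 with a pseudocount of 0.1). With quantile normalization Efnb1 turned to 0.0205 for all clones and Ephb3 to 0.006415 with FOXP2-CPED1. Without the 3 mitochondrial-zero libraries, between constructs, Efna5 turned to 0.0861, Efnb2 to 0.0449, Epha2 to 0.391, Ephb2 to -0.0127, Ephb3 to -0.006158 and Ephb4 to -0.22. In the same setting Ephb3 turned to 0.003473 for all clones, 0.006552 with FOXP2 and 0.0003941 with FOXP2-CPED1, and Ephb4 to 0.0293 with FOXP2.

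Leaving out 1 library at a time turned further signs. Efna1 ran from -0.12 to 0.10 between constructs. Efna5 ran from -0.105 to 0.0757 between constructs. Efnb1 ran from -0.0536 to 0.296 with FOXP2, -0.34 to 0.008547 with FOXP2-CPED1 and -0.20 to 0.15 for all clones. Efnb2 ran from -0.23 to 0.27 with FOXP2-CPED1. Epha2 ran from -0.83 to 0.00143 between constructs. Ephb2 ran from -0.11 to 0.28 between constructs. Ephb3 ran from -0.24 to 0.22 with FOXP2, -0.22 to 0.24 between constructs, -0.0910 to 0.0551 with FOXP2-CPED1 and -0.12 to 0.11 for all clones. Ephb4 ran from -0.0243 to 0.190 between constructs. Without a turn of sign, values against the control moved over 1.5 times from the main fit for 4 members. With FOXP2 these were Efna5 (0.147 to 0.320), Efnb2 (0.233 to 0.671), Ephb2 (-0.485 to -0.0939) and Ephb4 (-0.316 to -0.126). With FOXP2-CPED1 they were Efna5 (0.140 to 0.297) and Ephb4 (-0.222 to -0.0172). For all clones they were Efnb2 (0.142 to 0.413), Ephb2 (-0.347 to -0.151) and Ephb4 (-0.233 to -0.112). Epha2 moved less from its main values, but ran from -1.304 to -0.655 with FOXP2 and from -1.757 to -1.007 with FOXP2-CPED1.

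Depth is unknown, and 2 control libraries limit every comparison with the control: with either alone, the log2 fold change of Efna1 was 1.10 or 0.92. Each clone is 1 library.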

Other observations

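FOXP2 clone 2 and FOXP2-CPED1 clone 4, the clones of their constructs with the highest Epha2, also had the lowest Efna1 and the lowest EphB sum in their constructs. Cped1, picked after its values were seen, was lowest in the same clones, at 6.43 RPKM (FOXP2) and 6.69 RPKM (FOXP2-CPED1). It stood at 24.2 and 27.0 RPKM in parental and vector cells and at 16.3 to 31.0 in the other 6 clones.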
